A study of Homo sapiens with 6 samples.

Results

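The endoplasmic reticulum (ER) folds and checks proteins that enter the secretory pathway, and 34 genes of this machinery and of the stress response that adjusts it were followed here. They were taken by symbol as a functional module: stress sensors and transcription factors, chaperones, disulfide enzymes, the translocon and the factors that remove misfolded proteins. All 34 were found, each once, among the 61806 genes of the count table, and all 34 had enough counts to be tested. RNA was sequenced in 6 libraries of HFF cells, wild-type human foreskin fibroblasts from a cell bank, kept in serum-containing medium. All were irradiated with 40 mJ per cm2 of UVB, the short-wave band of sunlight, and then cultured for 48 h. The UVB group (3 libraries) received vehicle, and the UVB + sauchinone group (3 libraries) received 10 µM sauchinone, a lignan from plants. The protocol text also describes a version in which the compound was given before irradiation too, and which version these libraries came from cannot be told apart. Unirradiated cells were not analysed here, so no value below is a response to UVB.

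When unfolded proteins accumulate in the ER, membrane sensors that include IRE1 (encoded by ERN1), ATF6 and PERK (encoded by EIF2AK3) become active, a programme called the unfolded protein response. IRE1 removes an intron from XBP1 messenger RNA so that it encodes an active transcription factor, ATF6 is cleaved to release its own transcription factor domain, and PERK slows translation and favours production of ATF4. XBP1 and ATF6 raise transcription of chaperones and of ER-associated degradation (ERAD), the route by which misfolded proteins are drawn back to the cytosol and destroyed. Fibroblasts depend on this machinery because collagens fold and are hydroxylated in the ER.

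The DNA elements through which these factors are known to act can be read in the promoters. RefSeq promoter sequences of build GRCh38.p14 were matched by symbol for 32 of the 34 genes, and the 250 bases before each start site were searched on both strands. The ER stress response element, ERSE, was searched as CCAAT, any 9 bases, CCACG. It was present for 8 of the 32 genes, some of which have several start sites (40 entries in all), and for 16 of the 11104 tested genes with an entry (0.144%). Counted by entry, 26 of the 35116 promoters in the table held it (0.0740%). The 9 sites are shown because they include genes that moved in opposite directions below. Each is written 5′ to 3′ along the strand of its gene, with the whole element in capitals and 5 flanking bases on each side in lower case. In 4 of the 9 the element lies in reverse, so that it begins with CGTGG and ends with ATTGG.
HSPA5: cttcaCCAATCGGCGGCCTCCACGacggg
XBP1: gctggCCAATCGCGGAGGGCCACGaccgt
CALR: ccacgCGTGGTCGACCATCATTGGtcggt
ERO1B: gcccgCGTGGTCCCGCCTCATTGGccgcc
CRELD2: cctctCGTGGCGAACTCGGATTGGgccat
HSP90B1, distal: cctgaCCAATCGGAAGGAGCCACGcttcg
HSP90B1, proximal: gggtgCGTGGTGCGGCGCGATTGGtgggt
PDIA6: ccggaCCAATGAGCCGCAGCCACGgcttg
CANX: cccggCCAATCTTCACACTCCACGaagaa

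The HSPA5 element lies at chr9:125241391-125241409 on the minus strand, 47 bases before the start site. The XBP1 element lies at chr22:28800603-28800621, also for a gene on the minus strand, 33 bases before the start site. HSP90B1, on the plus strand, was the member with 2 elements, at chr12:103930216-103930234 and chr12:103930321-103930339. The remaining sites are at chr19:12938384-12938402 for CALR, chr1:236282183-236282201 for ERO1B, chr22:49918554-49918572 for CRELD2, chr2:10812853-10812871 for PDIA6 and chr5:179698778-179698796 for CANX. For CANX, PDIA6, HSP90B1 and CRELD2 the RefSeq start lies downstream of the 5′ end that the deposited table gives for the gene, so these elements fall inside the deposited extent. A second element, ERSE-II, was searched as ATTGG, any 1 base, CCACG, and was present in HERPUD1, SDF2L1 and, at 2 places, HYOU1. It occurred for 13 of the 11104 tested genes (0.117%) and in 18 of all 35116 promoters (0.0513%). Both HYOU1 copies, at chr11:119057274-119057284 and chr11:119057380-119057390, lie in reverse, and they share the 11 bases of the element.
HYOU1, proximal: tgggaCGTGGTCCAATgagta
HYOU1, distal: cgtgaCGTGGTCCAATcccag

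The UPRE core TGACGTGG was present in DNAJC10, HYOU1 and TXNDC5, for 113 of the 11104 tested genes (1.02%) and in 215 of all promoters (0.612%), and the copy in HYOU1 overlaps the distal ERSE-II site. The shorter motif CCACG, which is part of ERSE and of ERSE-II and whose reverse complement is part of the UPRE core, was present for 25 of the 32 members (78.1%), for 50.9% of the 11104 tested genes and in 33.5% of all promoter entries. No promoter sequence was matched for PDIA3 and DERL1, so these genes were not searched. These matches describe letters in a window, not binding.

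With sauchinone, 16 of the 34 genes rose, 6 fell and 12 did not pass the test. The IRE1 gene ERN1, its target XBP1, the main ER chaperone HSPA5 and the ubiquitin ligase of ERAD, SYVN1, were among those that rose, while the other sensor in the set, ATF6, fell. Summed over all 34 genes, the share of the library's counts was 0.981% ± 0.00326 in UVB and 1.13% ± 0.0582 in UVB + sauchinone (mean ± SD over 3 libraries). The single libraries were at 0.980%, 0.979% and 0.985% in UVB and at 1.12%, 1.19% and 1.07% in UVB + sauchinone, so the groups did not overlap. Genes were called with edgeR's quasi-likelihood test on the counts at a Benjamini-Hochberg adjusted p under 0.05, adjusted over the whole set of 15704 tested genes. Changes were common in these libraries: by the same test 49.6% of all tested genes differed, with 24.7% higher and 24.9% lower. Beside that background, the members that rose were 47.1% of the set and those that fell 17.6%. With a trend of the counts on exonic size removed, 20 members were higher and 4 lower. With a trend on genomic span removed 13 were higher and 6 lower, and with a trend on GC content removed 14 and 4. The median log2 fold change, UVB + sauchinone over UVB, was 0.19 over the members and 0.01 over all tested genes. Each library of one group lay beyond each library of the other in 24 members (70.6%), and in 57.1% of all tested genes. RNA was measured in bulk, so fewer cells of a type and less RNA per cell cannot be told apart. The labels do not say that replicates came from separate cultures, so each p-value reflects the spread of these libraries, which may be technical.

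**Figure D1:**
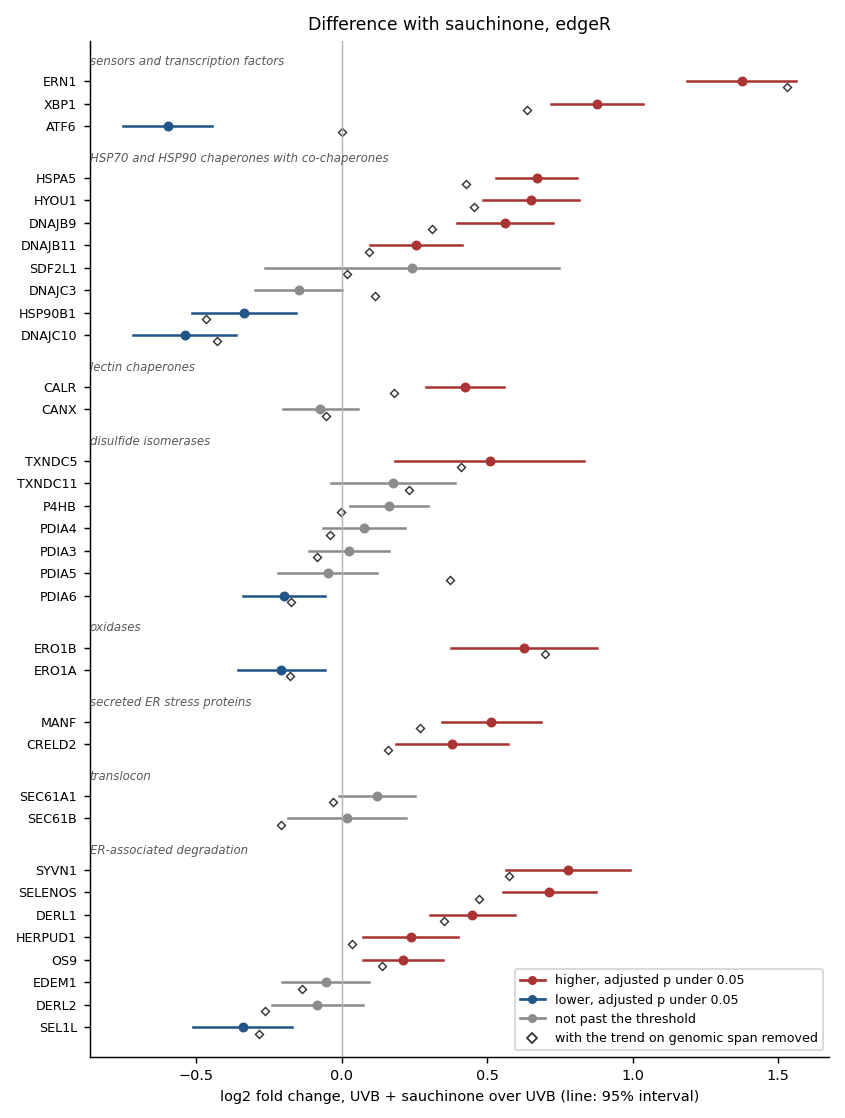
The x axis is the log2 fold change of UVB + sauchinone over UVB for each of the 34 genes (rows, grouped by role), with its 95% interval as a line, and open diamonds give the value after a trend on genomic span was removed. ERN1 stands farthest to the right at 1.37, and the diamond of ATF6 lies at 0 while its filled point lies at -0.60.

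All members of the group of sensors and transcription factors changed, with 2 of 3 higher and 1 lower. ERN1 encodes IRE1, the kinase and ribonuclease that starts the XBP1 branch. Its level, in CPM (counts scaled to a fixed, TMM-adjusted library size), was 30.1, 30.3 and 32.3 in UVB replicates 1 to 3 and 81.7, 88.3 and 70.2 in UVB + sauchinone replicates 1 to 3. Every sauchinone library was above every UVB library, and the rise was 2.59-fold, or 1.37 ± 0.095 as a log2 fold change (± SE, here and below; edgeR adjusted p = 7.3e-11). Among all tested genes ordered by log2 fold change, ERN1 ranked 320 from the top and was the highest member. XBP1, the transcription factor made from the RNA that IRE1 splices, was at 97.9, 107 and 91.1 CPM in UVB and at 175, 195 and 175 CPM in UVB + sauchinone. The groups were again apart, with a log2 change of 0.88 ± 0.081 (edgeR adjusted p = 7.3e-09). Counts per gene do not separate spliced from unspliced XBP1 RNA, so splicing was not measured.

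ATF6, the sensor that is itself cleaved into a transcription factor, was at 118, 119.5 and 115 CPM in UVB and at 78.7, 81.2 and 73.0 CPM in UVB + sauchinone. It was the member with the largest fall, 1.51-fold, with no overlap between the groups and a log2 change of -0.60 ± 0.078 (edgeR adjusted p = 1.3e-06). ATF6 is also the longest member, spanning 211 kb (chr1:161766298-161977574), and long genes were lower across the whole table. After removal of a smooth dependence of the counts on span, the difference for ATF6 was 0.0017 (edgeR adjusted p = 0.99), and with an exonic size trend removed it was -0.33 (edgeR adjusted p = 0.0014). Removing the span trend left ERN1, which spans 91.7 kb (chr17:64039080-64130819), at 1.53 (edgeR adjusted p = 2.1e-11). It left XBP1, at 6.04 kb (chr22:28794555-28800597), at 0.64 (edgeR adjusted p = 2.8e-07).

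**Figure D2:**
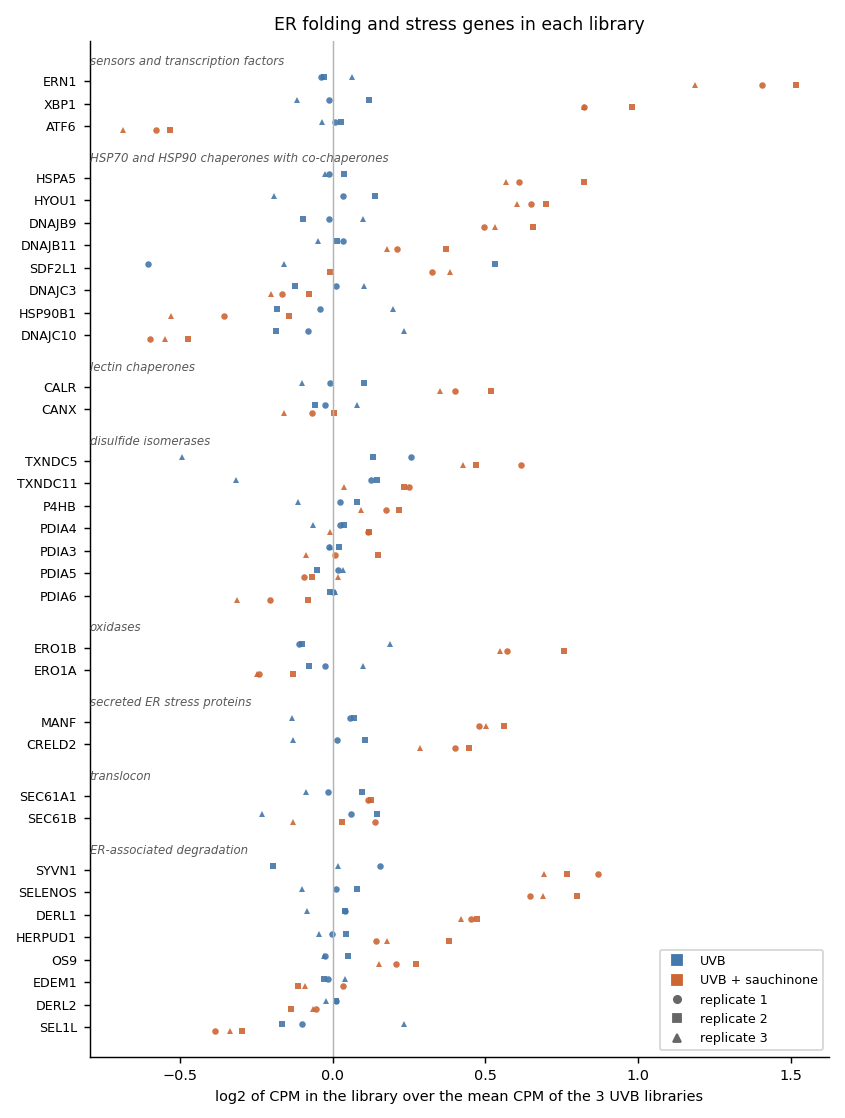
The x axis is the log2 of each library's CPM over the mean CPM of the 3 UVB libraries, with 1 row per gene, UVB libraries in blue, UVB + sauchinone libraries in orange and the marker shape giving the replicate. ERN1, XBP1, HSPA5 and SELENOS show orange points far from the blue ones, whereas for HSP90B1 the orange point of replicate 2 falls among the blue points.

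Among the 8 HSP70 and HSP90 chaperones and their co-chaperones, 4 rose and 2 fell. HSPA5 encodes BiP, the HSP70 of the ER, which also holds the stress sensors inactive. It stood at 845, 874 and 839 CPM in UVB and at 1299.8, 1506 and 1262 CPM in UVB + sauchinone, a 1.59-fold rise (log2 fold change 0.67 ± 0.071, edgeR adjusted p = 6.2e-08). The 3 UVB libraries were close together and all sauchinone libraries were above them. With the span trend removed HSPA5 was at 0.43 and DNAJB9, described below, at 0.31 (edgeR adjusted p = 2.1e-05 and 0.0049). HYOU1, the large HSP70-like protein that exchanges the nucleotide of BiP, was at 115, 123 and 98.0 CPM against 176, 182 and 169.9 CPM. Its rise of 0.65 ± 0.083 on the log2 scale (edgeR adjusted p = 9.9e-07) was near that of HSPA5. DNAJB9, a J-domain partner that brings BiP back to IRE1, was at 63.8, 60.1 and 68.9 CPM against 90.6, 101 and 92.9 CPM, a log2 change of 0.56 ± 0.084 (edgeR adjusted p = 7.8e-06). DNAJB11, the J-domain partner that hands unfolded clients to BiP, rose less, from 87.4 ± 2.60 to 104 ± 7.55 CPM (mean ± SD, n = 3), with a log2 change of 0.26 (edgeR adjusted p = 0.011). This call was lost with the span trend removed, at 0.10 (edgeR adjusted p = 0.31), and without UVB + sauchinone replicate 2, at 0.19 (edgeR adjusted p = 0.082).

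HSP90B1, the ER member of the HSP90 family, went the other way. It was at 986, 893 and 1162 CPM in UVB and at 793, 918 and 703 CPM in UVB + sauchinone. Unlike the genes above, its groups overlapped, because sauchinone replicate 2 exceeded UVB replicate 2. The log2 fold change was -0.33 ± 0.091 (edgeR adjusted p = 0.0041), and it was -0.24 without sauchinone replicate 3 (edgeR adjusted p = 0.054) and -0.085 with a trend on exonic size removed (edgeR adjusted p = 0.43). DNAJC10, a J-domain reductase that opens disulfides before degradation, was at 214, 199 and 266 CPM against 149, 163 and 155 CPM. UVB replicate 3 was high, but the lowest UVB library was still above all sauchinone libraries, and the log2 fold change was -0.54 ± 0.090 (edgeR adjusted p = 3e-05). With the exonic size trend removed it was -0.088 (edgeR adjusted p = 0.35), and with a GC trend removed -0.25 (edgeR adjusted p = 0.00044). DNAJC3, a J-domain protein known as an inhibitor of PERK and related kinases, was at 187 ± 14.6 and 169 ± 7.51 CPM. It did not pass (edgeR adjusted p = 0.12), though it was lower at -0.21 without UVB replicate 2 (edgeR adjusted p = 0.023). SDF2L1, which keeps DNAJB11 clients in the BiP cycle, was the lowest of the 8, at 1.68, 3.71 and 2.29 CPM against 3.21, 2.55 and 3.34 CPM. Its 95% interval for the log2 fold change ran from -0.26 to 0.75 and so did not exclude a difference of the size seen for HSPA5. The value was 0.02 without UVB replicate 1 and 0.60 without UVB replicate 2 (edgeR adjusted p = 0.97 and 0.064).

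The lectin chaperones hold glycoproteins while they fold, and of this pair only the soluble one passed. CALR, calreticulin, was at 1573, 1699 and 1479 CPM in UVB and at 2092, 2269 and 2018 CPM in UVB + sauchinone, a 1.34-fold rise without overlap (log2 fold change 0.43 ± 0.068, edgeR adjusted p = 2e-05). It was 0.18 with the span trend removed and 0.28 with a GC trend removed (edgeR adjusted p = 0.018 and 9e-05). CANX, the membrane-bound calnexin, was at 1472 ± 73.0 CPM and 1399.8 ± 78.6 CPM (mean ± SD, n = 3). Its log2 fold change was -0.07, with a 95% interval of -0.20 to 0.06 (edgeR adjusted p = 0.38), and it was 0.19 with the exonic size trend removed (edgeR adjusted p = 0.018).

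Of the 7 protein disulfide isomerases, which form and reshuffle disulfide bonds, 1 rose, 1 fell and 5 did not pass. P4HB, the classical isomerase and also a subunit of the enzyme that hydroxylates procollagen, was at 869, 903 and 789 CPM against 964, 992 and 911 CPM. The groups did not overlap, yet the log2 fold change of 0.16 ± 0.068 missed the threshold (edgeR adjusted p = 0.053). Without UVB replicate 2, the highest UVB library, it passed at 0.20 (edgeR adjusted p = 0.014). With the exonic size trend removed P4HB was at 0.36 and PDIA3 at 0.24, both past the threshold (edgeR adjusted p = 0.00028 and 0.0075). PDIA3, the isomerase that works with calreticulin and calnexin, was at 669 ± 8.24 and 681 ± 57.0 CPM, and PDIA4 was at 196 ± 7.37 and 206 ± 10.3 CPM. Their 95% intervals were -0.11 to 0.16 and -0.06 to 0.22 on the log2 scale. PDIA6, the isomerase with an ERSE in the list above, was at 341, 338 and 342 CPM in UVB and at 295, 322 and 274 CPM in UVB + sauchinone. It fell by 0.20 ± 0.072 on the log2 scale (edgeR adjusted p = 0.027), a call that was lost without sauchinone replicate 3, at -0.14 (edgeR adjusted p = 0.19). It was also lost without sauchinone replicate 1, at -0.19, and without UVB replicate 1, at -0.20 (edgeR adjusted p = 0.10 and 0.086), and with a GC trend removed, at -0.11 (edgeR adjusted p = 0.13). PDIA5 was at 46.3 ± 1.43 and 44.8 ± 1.85 CPM, a log2 fold change of -0.05, but it spans 158 kb and was at 0.37 with the span trend removed (edgeR adjusted p = 0.00071).

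TXNDC5, an isomerase with thioredoxin domains, was called higher at 8.38, 7.69 and 4.99 CPM against 10.8, 9.72 and 9.43 CPM (log2 fold change 0.51 ± 0.17, edgeR adjusted p = 0.014). UVB replicate 3 was the lowest library, and without it the log2 fold change was 0.31 (edgeR adjusted p = 0.090). Without sauchinone replicate 1, the highest library, it was 0.45 (edgeR adjusted p = 0.059). Of the exonic bases of TXNDC5 in GENCODE release 29, 60.6% are shared with the readthrough gene BLOC1S5-TXNDC5 on the same strand, which had 0 counts in every library. How reads in the shared bases were counted is not given in the sources used here, so the level of TXNDC5 is uncertain. TXNDC11, a membrane protein that partners the ERAD factor EDEM1, was at 41.6 ± 7.10 and 47.1 ± 3.74 CPM (edgeR adjusted p = 0.19).

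The 2 ER oxidases, which pass electrons from the isomerases to oxygen, changed in opposite directions. ERO1A, the widely expressed form, was at 172, 166 and 188 CPM in UVB and at 148, 160.3 and 148 CPM in UVB + sauchinone. This fall of 0.21 ± 0.075 on the log2 scale (edgeR adjusted p = 0.027) was small, and it missed the threshold in 9 of 18 alternative analyses. Among these were the ones without UVB replicate 1 or 3, at -0.22 and -0.16, and without sauchinone replicate 1 or 3, at -0.19 and -0.18 (edgeR adjusted p = 0.067, 0.051, 0.13 and 0.11). With a GC trend removed ERO1A was at -0.029 (edgeR adjusted p = 0.70). ERO1B, best known from secretory cells such as those of the pancreas, was at 9.19, 9.26 and 11.3 CPM against 14.7, 16.8 and 14.5 CPM. Its rise of 0.63 ± 0.13 (edgeR adjusted p = 0.00031) passed in all 18 alternatives.

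Both secreted proteins of ER stress rose. MANF, which binds BiP in the ER and is released under stress, was at 46.8, 47.2 and 41.0 CPM in UVB and at 62.7, 66.5 and 63.7 CPM in UVB + sauchinone. It gained 0.51 ± 0.087 on the log2 scale (edgeR adjusted p = 3.7e-05), with the groups well apart, and 0.27 with the span trend removed (edgeR adjusted p = 0.0088). CRELD2, another ER protein released under stress, went from 25.7 ± 2.10 to 33.5 ± 1.87 CPM (mean ± SD, n = 3), or by 0.38 ± 0.098 on the log2 scale (edgeR adjusted p = 0.0027). For CRELD2 the value was 0.16 with the span trend removed and 0.16 with a trend on GC content removed, past the threshold in neither (edgeR adjusted p = 0.16 and 0.096).

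Neither translocon gene passed in the test as reported. SEC61A1, the channel through which new proteins enter the ER, was at 718, 774 and 683 CPM against 785, 791 and 788 CPM. Its groups did not overlap, and the log2 fold change was 0.12 with a 95% interval of -0.01 to 0.25 (edgeR adjusted p = 0.14). Without UVB replicate 2 it passed, at 0.17 (edgeR adjusted p = 0.037), as it did at 0.17 with scaling to total counts and at 0.33 with the exonic size trend removed (edgeR adjusted p = 0.038 and 0.00045). SEC61B, a small subunit of the same channel, was at 41.4 ± 5.44 and 41.9 ± 3.88 CPM, with an interval of -0.18 to 0.22 (edgeR adjusted p = 0.90).

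In the ERAD group 5 of 8 genes rose and 1 fell. SYVN1 encodes HRD1, the ubiquitin ligase at the centre of the best-known ERAD complex. It was at 19.1, 14.96 and 17.3 CPM in UVB and at 31.2, 29.1 and 27.6 CPM in UVB + sauchinone, a 1.71-fold rise (log2 fold change 0.78 ± 0.11, edgeR adjusted p = 3.5e-06). All sauchinone libraries lay above the UVB range. Of its exonic bases 7.24% are shared with FAU on the same strand, whose counts were 1118 to 1322 in UVB and 1988 to 2198 in UVB + sauchinone. A further overlap, of 6.48%, is with MRPL49 on the opposite strand, at 1358 to 1536 and 2329 to 2520 counts. The part of these overlaps in the rise was not tested. SEL1L, the adaptor that holds HRD1 in place, was at 251, 239.8 and 316 CPM against 206, 219 and 213 CPM. The partner thus fell, by 0.34 ± 0.087 on the log2 scale (edgeR adjusted p = 0.0024). UVB replicate 3 was the highest library, and without it the difference was still past the threshold, at -0.21 (edgeR adjusted p = 0.0062). SEL1L was at -0.19 with the exonic size trend removed and at -0.14 with a GC trend removed (edgeR adjusted p = 0.049 and 0.047).

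SELENOS, a selenoprotein that tethers the VCP segregase to the ER membrane, was at 69.9, 73.3 and 64.7 CPM in UVB and at 108, 121 and 112 CPM in UVB + sauchinone (log2 fold change 0.71 ± 0.082, edgeR adjusted p = 2e-07; 0.47 with the span trend removed). DERL1, a rhomboid-like protein of the retrotranslocation channel, was at 110.4, 110.4 and 101 CPM against 147, 149 and 144 CPM, a gain of 0.45 ± 0.075 (edgeR adjusted p = 3.2e-05). In both genes all sauchinone libraries were above all UVB libraries. The related DERL2 was at 71.2, 71.1 and 69.5 CPM against 68.0, 64.3 and 67.6 CPM. Its groups also did not overlap, in the other direction, but the log2 fold change of -0.08 did not pass (edgeR adjusted p = 0.41), and with the span trend removed it was -0.26 (edgeR adjusted p = 0.0065). HERPUD1, which helps assemble the HRD1 complex, went from 86.2 ± 2.63 to 102 ± 9.33 CPM (log2 fold change 0.24, edgeR adjusted p = 0.021). OS9, a lectin that brings misfolded glycoproteins to SEL1L, went from 213 ± 6.71 to 247 ± 10.3 CPM (log2 fold change 0.21, edgeR adjusted p = 0.016). With the span trend removed neither of these small rises passed, at 0.04 and 0.14 (edgeR adjusted p = 0.74 and 0.087). HERPUD1 also missed it without UVB replicate 1, at 0.23, and without sauchinone replicate 2, at 0.16 (edgeR adjusted p = 0.077 and 0.16). OS9 missed it without UVB replicate 1 and without sauchinone replicate 1 or 2, at 0.20, 0.22 and 0.18 (edgeR adjusted p = 0.094, 0.057 and 0.075), and with a GC trend removed, at 0.086 (edgeR adjusted p = 0.21). EDEM1, which trims mannose from glycoproteins bound for degradation, was at 124 ± 3.12 and 119.5 ± 6.64 CPM, with a 95% interval of -0.20 to 0.09.

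Several members work in pairs, and a ratio inside a library does not depend on how libraries are scaled. The ratios printed are between FPKM values, counts scaled to exonic length and to the library total. The test and the fold difference used the log2 ratios of the raw counts. These were tested over samples with a two-sided exact permutation test, whose smallest possible p with 3 against 3 libraries is 0.1. Over the 6 pairs compared, 5 reached that smallest value (exact permutation p = 0.1, adjusted p = 0.12), which the design cannot bring under 0.05. HSPA5 over HSP90B1 showed the largest shift. The ratio was 1.72, 1.96 and 1.45 in UVB and 3.29, 3.29 and 3.599 in UVB + sauchinone, 2.00-fold higher. Both genes carry ERSE sites, and the ratio was higher in every sauchinone library than in any UVB library. ERO1A over ERO1B went from 36.2 ± 2.20 to 20.3 ± 0.636, so the A form remained the more abundant per length in all 6 libraries. DERL2 over DERL1 went from 0.718 ± 0.0262 to 0.496 ± 0.0223, CALR over CANX from 5.31 ± 0.612 to 7.46 ± 0.129, and PDIA4 over PDIA6 from 0.714 ± 0.0309 to 0.865 ± 0.0388 (mean ± SD, n = 3). SEC61B over SEC61A1 overlapped between the groups, at 0.551 ± 0.0444 and 0.515 ± 0.0486 (exact permutation p = 0.4). The level of each ratio rests on the deposited exonic sizes. Trends on span, exonic size or GC content were not removed from the ratios. With the exonic size trend removed, the log2 fold changes were 0.30 for CALR and 0.19 for CANX, and 0.68 for HSPA5 and -0.085 for HSP90B1. With a GC trend removed they were -0.032 for PDIA4 and -0.11 for PDIA6.

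**Figure D3:**
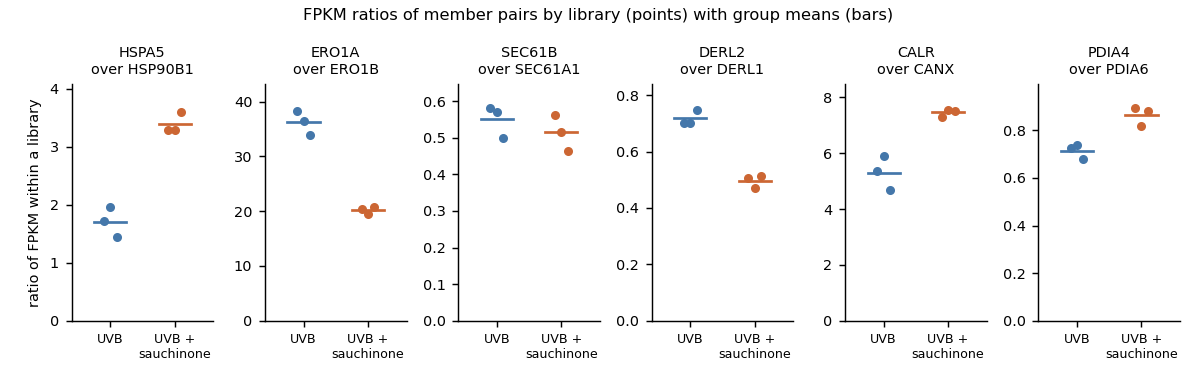
Each panel gives, on an axis that starts at 0, the ratio of the FPKM values of 2 genes in each library (points) with the group mean (bar), for UVB and UVB + sauchinone. The groups are apart in all panels except SEC61B over SEC61A1, and HSPA5 over HSP90B1 goes from a mean of 1.71 to 3.39.

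Compared per exonic length, the level of CALR was the highest of the members in both groups, at 556 ± 37.4 FPKM in UVB and 769 ± 40.0 FPKM in UVB + sauchinone. HSPA5 was second at 128 ± 2.41 and 210.5 ± 18.4 FPKM, and CANX next at 105 ± 5.26 and 103 ± 5.12 FPKM. The next places in UVB, PDIA6 at 81.7 ± 0.874, HSP90B1 at 76.1 ± 10.3 and P4HB at 75.4 ± 5.13 FPKM, did not differ beyond their spread, except that PDIA6 lay above P4HB by more than the larger SD. With sauchinone P4HB, at 87.0 ± 3.29 FPKM, took place 4, and HSP90B1, at 62.3 ± 7.83 FPKM, went to place 8. XBP1 moved from place 12, at 32.0 ± 2.54 FPKM, to place 9, at 60.7 ± 3.28 FPKM. The sensors were far lower. ATF6 was at 8.09 ± 0.173 and 5.52 ± 0.271 FPKM, and ERN1 at 1.59 ± 0.0551 and 4.24 ± 0.458 FPKM, so that in UVB the ERN1 level was at place 32 of 34. ERO1B was last in both groups, at 0.633 ± 0.0751 and 1.01 ± 0.0700 FPKM. All these places rest on the deposited exonic sizes. Those were 13092 bases for HSP90B1, 13764 for CANX and 11132 for P4HB, against 4695, 6235 and 5303 in GENCODE. For CALR and PDIA6 they were close, at 2802 and 4096 against 2714 and 4101. In CPM the UVB mean was 1014 for HSP90B1 and 853 for HSPA5. Whether the places hold with other sizes was not tested.

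**Figure D4:**
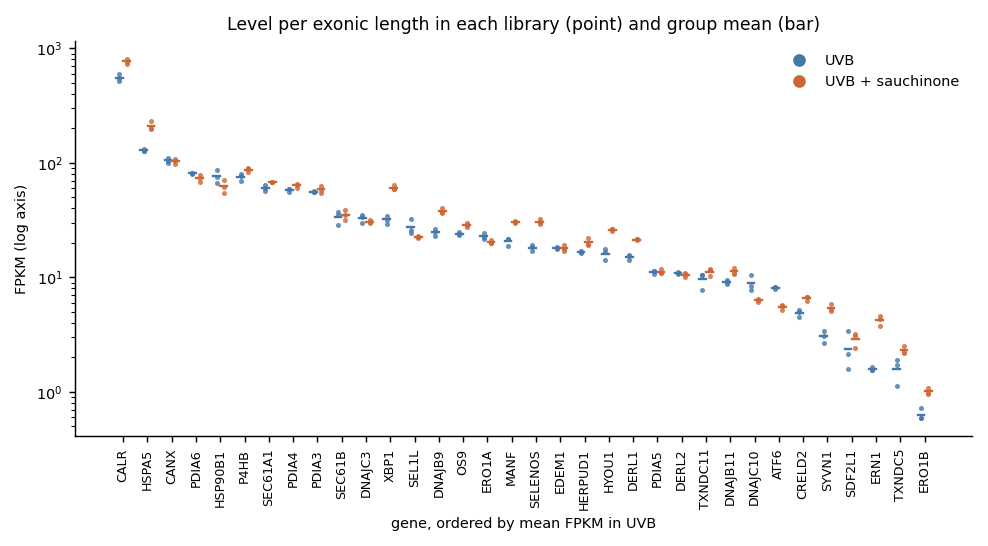
FPKM in each library (points) and group means (bars) on a log axis, for the 34 genes ordered by their mean in UVB. Levels run from 556 FPKM for CALR to 0.633 FPKM for ERO1B in UVB, and ERN1 and XBP1 stand above their neighbours in the orange series.

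Other genes of the pathway were counted in lists, and those named below are PERK, ATF4, DDIT3 and the 2 genes with the smallest p in each list. Each count is to be read beside the 24.7% of all tested genes that were higher and the 24.9% that were lower. In the PERK branch 7 of 10 genes rose (70%), with a median log2 fold change of 0.53. The log2 fold changes of the remaining genes were 0.05 to 0.11. EIF2AK3, which encodes PERK, had a mean of 38.7 CPM with UVB alone and 39.96 CPM with sauchinone and did not pass (log2 fold change 0.05, edgeR adjusted p = 0.72). EIF2AK3 spans 135 kb, and with the span trend removed it was at 0.37 (edgeR adjusted p = 0.0030). ATF4, the transcription factor whose translation PERK favours, was at 105, 122 and 107 CPM against 164, 166 and 139 CPM (log2 fold change 0.49, edgeR adjusted p = 5.4e-05; 0.24 with the span trend removed, edgeR adjusted p = 0.013). ATF3, a transcription factor downstream of ATF4 and of other stress kinases, was at 11.0, 9.68 and 8.74 CPM against 75.0, 99.6 and 60.0 CPM, a log2 change of 3.00 (edgeR adjusted p = 4.1e-13). PPP1R15A, the phosphatase subunit that ends the translation block, gained 1.17 (edgeR adjusted p = 2.7e-09). DDIT3, the factor called CHOP, gained 0.51 (edgeR adjusted p = 0.0012), and 0.26 with the span trend removed (edgeR adjusted p = 0.079). For ATF3 the sauchinone libraries were all far above the UVB libraries, and its log2 difference was larger than that of any member.

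Among the other regulators of the response, 4 of 13 tested genes rose and 3 fell. The subunits of NF-Y, the factor that binds the CCAAT end of the ERSE, moved apart. NFYA was at 42.0, 42.1 and 46.8 CPM against 62.2, 71.9 and 67.3 CPM (log2 fold change 0.62, edgeR adjusted p = 4.4e-06), and NFYB was at 49.1, 49.3 and 62.7 CPM against 35.8, 35.8 and 38.7 CPM (log2 fold change -0.55, edgeR adjusted p = 9.2e-05). ERN2, the epithelial relative of ERN1, had at most 1 count in a library and was not tested. Of 20 tested further ERAD genes 9 rose and 1 fell (45% and 5%), a median of 0.12. The ubiquitin ligase gene RNF139 gained 0.74 (edgeR adjusted p = 2.3e-07) and AUP1, which recruits a ubiquitin-conjugating enzyme to the HRD1 complex, gained 0.70 (edgeR adjusted p = 2.3e-06), or 0.45 with the span trend removed. Of 29 other folding genes 7 rose and 5 fell (24.1% and 17.2%), a median of 0.07. SDF2, the relative of SDF2L1, was at 82.2, 86.3 and 72.2 CPM against 123, 130.3 and 121 CPM (log2 fold change 0.64, edgeR adjusted p = 1.2e-06). UGGT1, which marks unfolded glycoproteins for another round with calnexin and calreticulin, fell by 0.53 (edgeR adjusted p = 2e-06), and was at -0.33 with the span trend removed. The 23 other genes of translocation and signal peptide cleavage were split, with 7 higher and 7 lower (30.4% each) and a median of -0.13. This split depended on the processing. It was 4 higher and 11 lower with the span trend removed, and 8 and 2 with a GC trend removed. Without sauchinone replicate 1 it was 6 and 3, and without sauchinone replicate 3 it was 7 and 3. SRPRB, a subunit of the receptor that docks ribosomes at the ER, gained 0.59 (edgeR adjusted p = 8.1e-07), and SPCS3, a signal peptidase subunit, fell by 0.54 (edgeR adjusted p = 1.4e-06).

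Genomic span moved with the direction of change in the members as in the whole table. Spearman's rho between span and log2 fold change was -0.529 over the 34 members and -0.385 over the 15704 tested genes, given as a description because genes of the same libraries are not independent. In the fifth of tested genes with the shortest spans, up to 6.933 kb, 29.4% of all genes were higher. The 7 members there, CALR, DNAJB9, HSPA5, MANF, SDF2L1, SELENOS and XBP1, had a median log2 fold change of 0.56, against 0.20 for all genes in that range, and 6 of them rose. In the fifth with the longest spans, 88.737 kb and above, 7.99% of all genes were higher and 58.5% lower, with a median of -0.44. ERN1, ATF6, DNAJC3 and PDIA5 are the 4 members there, and ERN1 was the one that rose. With the span trend removed, 13 members were higher and 6 lower, and the median over the members was 0.10, against -0.02 over all tested genes. ERN1, XBP1, SYVN1, SELENOS, HSPA5, HYOU1, ERO1B, DNAJB9, MANF, DERL1 and CALR were past the threshold in the same direction in all 18 alternatives. The part of span in the other differences was not tested.

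**Figure D5:**
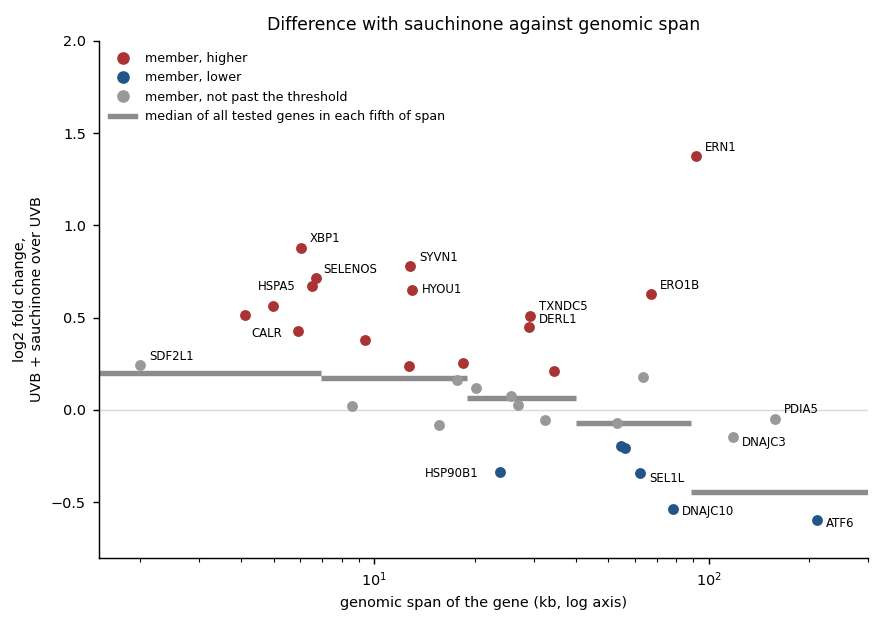
Log2 fold change, UVB + sauchinone over UVB, against genomic span in kb on a log axis for the 34 members, with grey bars at the median of all tested genes in each of 5 equal groups by span; not all members carry a name. The bars fall from 0.20 to -0.44 with span, ERN1 lies at 1.37 above the bar of the longest group, and ATF6 lies near it.

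Grouped by the promoter elements, the 8 members with an ERSE comprised 5 that rose, 2 that fell and 1 that did not pass, with a median log2 fold change of 0.40, and the 24 matched members without one had a median of 0.17. HSPA5, XBP1, CALR, ERO1B and CRELD2 were the 5, HSP90B1 and PDIA6 the 2, and CANX the 1. Of those 24 members, 10 rose and 4 fell. Over all 16 tested genes with an ERSE in the same window, 8 of them members, 8 were higher (50%) and 4 lower (25%). Among all 11104 tested genes with a promoter entry, 26.81% were higher and 26.45% lower. The element was found in genes that rose and in genes that fell, and these numbers describe the promoters of these genes only.

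The 6 libraries held 20984851 to 23076388 counts, and 3 counts in a library corresponded to 0.130 to 0.143 CPM, a floor for counting error only. All carried 1 batch label. Of 10 fibroblast markers 9 were lower with sauchinone, their summed level being 18963 to 20593 CPM in UVB and 13709 to 14125 CPM in UVB + sauchinone (scaled to total counts). The part of this shift in the values above was not tested. Among markers of other cell types, KRT1, KRT5 and DSG3 of keratinocytes, CDH5 and KDR of endothelium and DCT of melanocytes were at 0 in all libraries. Of the 5 melanocyte markers, MITF and MLANA were called lower. MITF made up most of their sum, at 57.3 CPM in UVB and 42.2 CPM with sauchinone (TMM-adjusted). MITF spans 229 kb, and its log2 fold change of -0.44 became 0.21 with the span trend removed (edgeR adjusted p = 0.04). MLANA stayed lower there, at -1.70 (edgeR adjusted p = 0.0024). The 6 keratinocyte markers summed to 10.7 to 11.5 CPM in UVB and 13.0 to 14.2 CPM in UVB + sauchinone, the 5 melanocyte markers to 54.6 to 63.0 and 44.0 to 44.5 CPM, and the 5 endothelial markers to 0.390 to 0.667 and 0.477 to 0.741 CPM. Of 8 pericyte and smooth muscle markers, 5 were lower, their sum being 342 to 346 CPM in UVB and 161 to 174 CPM in UVB + sauchinone.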

How the data were processed

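The authors deposited a table of raw counts per gene and library, with FPKM values, gene coordinates and exonic sizes. The reference was GRCh38, per the submitters' processing notes. For the aligner, the counting program and the use of strand, the methods were not given in the sources used here. Per the labels' protocols, libraries were strand-specific and made after poly(A) selection or removal of ribosomal RNA, without saying which. The deposited FPKM could be rebuilt from the counts, exonic sizes and totals to within 0.005, so tests used the counts. No column of another sample was present (0 columns).

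The test ran in edgeR 4.0.16 under R 4.3.3: filterByExpr, TMM scaling, the quasi-likelihood test, two-sided, and Benjamini-Hochberg adjustment over 15704 genes. Standard errors were derived from each fold change and F statistic, with a median of 0.081 over the members. The fit was tested on simulated data. Ratios were tested with scipy 1.17.1. Promoters came from RefSeq (GRCh38.p14) and exon overlaps from GENCODE release 29. The members, lists, pairs and tests were chosen with earlier results of these data known. Named were all 34 members, the 2 genes with the smallest p in each further list, and DDIT3, ATF4 and EIF2AK3. ERN2, FAU, MITF, MLANA and BLOC1S5-TXNDC5 were named after their values were seen. The 18 alternatives were other normalizations and low-count filters, DESeq2 1.42.0, limma-voom (limma 3.58.1), a minimum fold change, a replicate block, removal of trends with span, exonic size or GC content, and each library left out. A marker list that holds an item withheld here is not reported.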

Additional observations from a re-analysis of the deposited data

How the results depend on the processing

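Of the 34 members, 16 were higher and 6 lower in the fit reported. The number lower was 2 with a minimum fold change of 1.2, leaving ATF6 and DNAJC10, beside 11 higher. Leaving out each library in turn gave 13 to 18 higher and 3 to 7 lower, the lowest without UVB + sauchinone replicate 3, where HSP90B1, PDIA6 and ERO1A missed the threshold. Other counts of members were within 1.5 times, with 20 higher and 4 lower when the exonic size trend was removed. Same-numbered libraries did not deviate together (correlations 0.0072, -0.078 and -0.031), and with the replicate block 16 were higher and 5 lower, ERO1A being lost. Signs turned, in log2 fold change, with the span trend removed for ATF6 (0.0017), DNAJC3 (0.11), P4HB (-0.00056), PDIA3 (-0.085), PDIA4 (-0.041), PDIA5 (0.37), SEC61A1 (-0.028) and SEC61B (-0.21). With the exonic size trend removed they turned for CANX (0.19), PDIA4 (-0.017) and SEC61B (-0.092), and with a GC trend removed, an alternative chosen after seeing the data, for DNAJC3 (0.061), SDF2L1 (-0.072), CANX (0.047), P4HB (-0.025), PDIA4 (-0.032) and DERL2 (0.062). Without UVB + sauchinone replicate 2 they turned for PDIA3 (range over left-out libraries -0.041 to 0.083) and EIF2AK3 (-0.036 to 0.13), and for SEC61B (-0.088 to 0.093) without UVB replicate 3 or, at -0.043, UVB + sauchinone replicate 1. ATF6 alone among these had been called, and the cause was not tested. SDF2L1, TXNDC5 and ERO1B, the members with the fewest CPM, had the largest standard errors.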
